A study of Rattus norvegicus with 6 samples.

Results

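The genes of deoxynucleotide synthesis and thymidine salvage were described in replicating and quiescent rat β-cells, the insulin-secreting cells of the pancreatic islet. The 9 members were *Rrm1*, *Rrm2*, *Rrm2b*, *Tk1*, *Tk2*, *Tyms*, *Dut*, *Dck* and *Samhd1*, chosen by name for their role in this pathway, with earlier results of these data known. Every probe carrying a member's name was taken, which gave 13 of 45598 probes, and the array names 36174 genes or accessions in all. Global expression was measured on 6 single-colour Agilent arrays, 3 of replicating and 3 of quiescent β-cells. Each of 3 islet preparations pooled 4 young adult male Wistar rats, with no genetic change and no drug named, and gave 1 array of each kind. Islets were cultured overnight at basal glucose with EdU, a thymidine analogue that is built into newly copied DNA, then dispersed, fixed and permeabilized. Large, granular cells bright for the zinc dye Newport Green were sorted as β-cells, EdU+ as replicating and EdU- as quiescent, so that both groups had met EdU, fixation and the sort. EdU marks cells that copied DNA at some time in the culture, not cells that were doing so when sorted. RNA was amplified before labelling.

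Cells make the building blocks of DNA along 2 routes. In the de novo route, ribonucleotide reductase turns ribonucleotides into deoxyribonucleotides. RRM1 is its large, catalytic and regulatory subunit and RRM2 the small subunit that supplies the radical in dividing cells, whereas RRM2B is a p53-inducible small subunit that serves DNA repair and mitochondrial DNA in resting cells. Thymidylate synthase (TYMS) makes dTMP from dUMP, and dUTPase (DUT) supplies dUMP and keeps uracil out of DNA. In the salvage route, TK1 in the cytosol and TK2 in mitochondria phosphorylate thymidine, and DCK phosphorylates deoxycytidine and purine deoxynucleosides. SAMHD1 breaks down deoxynucleoside triphosphates. TK1, RRM2 and TYMS are textbook examples of products that rise around S phase. Thymidine analogues such as EdU reach DNA through salvage, so the salvage enzymes also handle the label used to sort the cells.

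The probes of 5 members are shown first, because the ratios below rest on what these 60 bases bind. They are given in lower case, as the array files list them, with their positions on the rat build rn4. The *Rrm2* and *Rrm2b* probes belong to the alternative small subunits. Capitals mark the stop triplet at the end of the *Rrm2* probe, and each of the other probes shown can be read without a stop in at least 1 frame.
Rrm1 (dimmer probe): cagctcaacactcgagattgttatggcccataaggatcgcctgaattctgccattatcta
Rrm2 (brighter probe): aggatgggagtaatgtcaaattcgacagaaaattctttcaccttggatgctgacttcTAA
Rrm2b: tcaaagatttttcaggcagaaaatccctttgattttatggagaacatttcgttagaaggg
Tk1 (dimmer probe): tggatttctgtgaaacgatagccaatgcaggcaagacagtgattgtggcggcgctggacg
Tyms: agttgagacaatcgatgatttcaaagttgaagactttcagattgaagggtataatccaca
In the orientation listed, no pair among the 13 probes (78 pairs) shared a run of more than 8 bases, and *Rrm2* and *Rrm2b* were read by unlike probes. The *Rrm2* probe lay at chr6:42357941-42358000 on the plus strand and the *Tyms* probe at chr9:112605733-112605792 on the minus strand. The *Rrm1* probe was placed at chr1:159936096-159937814, a stretch of 1719 bases that is longer than the probe, and the *Rrm2b* probe at chr7:73432277-73433204, a stretch of 928 bases. The file placed the *Tk1* probe at chr3:109023260-109023319, whereas RefSeq lists *Tk1* on chromosome 10 of the assembly GRCr8. The probe's accession was that of *Tk1*, and its position was not checked further. An exon annotation of rn4 was not used here.

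Values are the deposited log2 values, background-corrected and quantile normalized by the authors, and are compared between arrays for the same probe only. A log2 ratio is replicating minus quiescent, so that 1 is a doubling. A probe was called where limma, blocked by islet preparation, gave an unadjusted p of at most 0.05 and a log2 ratio of at least 1 in size. By this rule 10 of the 13 member probes were called higher in the replicating β-cells and 0 lower, against 4.44% of all probes called higher and 4.18% called lower. The 10 probes belonged to 6 of the 9 genes, *Rrm1*, *Rrm2*, *Tk1*, *Tyms*, *Dut* and *Dck*. *Rrm2b*, *Tk2* and *Samhd1* were not called. After Benjamini-Hochberg adjustment over all probes, limma called 0 member probes and 0.0% of all probes, with member values from 0.0977 to 0.929. At an unadjusted p of at most 0.05 alone there were 4379 of 45598 probes. In 10 of the 13 member probes, the same 10 that were called, every replicating array read above every quiescent array. Of all probes with a value on every array, 9.01% did so. The median log2 ratio over the 13 probes was 1.75, against -0.071 over all probes, and by preparation it was 1.88, 1.87 and 1.33. Standard errors (SE) and intervals of the ratios below are moderated by limma, which draws each probe's variance toward that of all probes. Where the preparations differ much, they can be narrower than the preparation ratios alone would give.

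**Figure D1:**
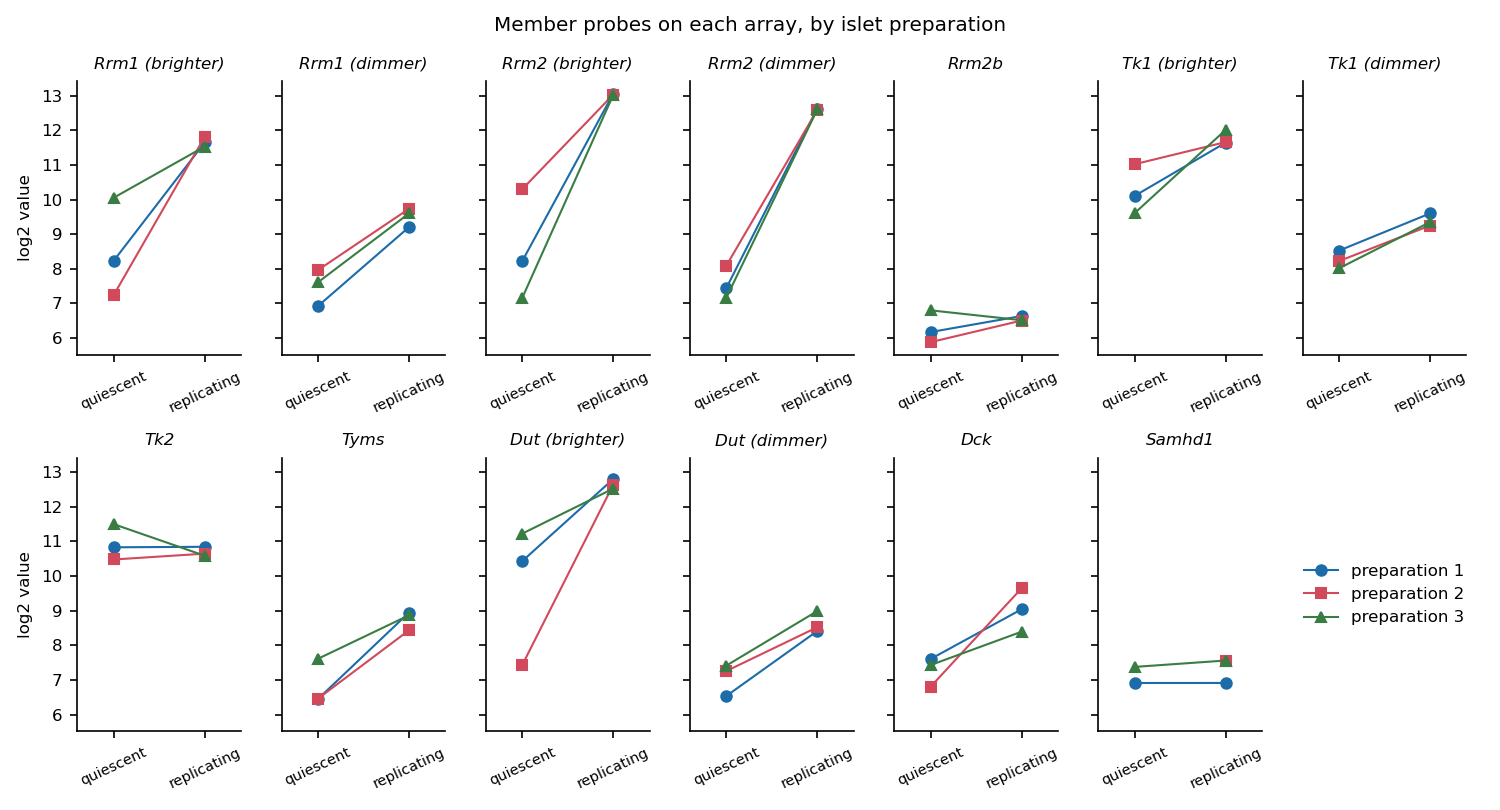
Log2 value (y axis) of each of the 13 member probes on the quiescent and the replicating array of each islet preparation, which a line joins. Lines of *Rrm1*, *Rrm2*, *Tk1*, *Tyms*, *Dut* and *Dck* all rise, and the replicating values of *Rrm2* lie almost on top of each other. For *Samhd1* the quiescent array of preparation 2 has no value.

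*Rrm2*, the small subunit of the reductase in dividing cells, had the largest ratios among the members. Its brighter probe read 13.05, 13.02 and 13.01 in replicating β-cells of preparations 1, 2 and 3, and 8.22, 10.29 and 7.15 on the quiescent arrays. Its other probe, printed in 10 spots per array, read 12.62, 12.59 and 12.60 on the replicating and 7.45, 8.09 and 7.17 on the quiescent arrays. The replicating arrays thus read nearly the same value in every preparation, with an SD of 0.019 for either probe, and the quiescent values were lower and spread over more than 3 log2 units for the brighter probe. The log2 ratio was 4.47 ± 0.65 (SE, n = 3 preparations, limma adjusted p = 0.245) for the brighter probe, or 22.2-fold. It was 5.04 ± 0.35 (SE, n = 3, limma adjusted p = 0.0977) for the 10-spot probe, or 32.8-fold. Of all 45598 probes, 9 had a higher ratio than this one. The SD between its spots within an array lay between 0.057 and 0.397, the highest on the quiescent array of preparation 2.

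*Rrm1*, the large subunit, was higher on both of its probes. The brighter probe, also in 10 spots, read 11.65, 11.81 and 11.53 on the replicating arrays and 8.23, 7.24 and 10.05 on the quiescent arrays. The dimmer probe read 9.20, 9.73 and 9.60 against 6.92, 7.96 and 7.61. No quiescent array reached a replicating array on either probe. The log2 ratios were 3.15 ± 0.64 (SE, n = 3, limma adjusted p = 0.475) and 2.01 ± 0.32 (SE, n = 3, limma adjusted p = 0.293). These are 8.89-fold and 4.03-fold.

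*Rrm2b*, the alternative small subunit, was dim and did not separate the groups. It read 6.64, 6.51 and 6.52 on the replicating arrays and 6.18, 5.88 and 6.80 on the quiescent arrays. Feature Extraction marked it well above background on 2 of 3 replicating and 1 of 3 quiescent arrays. The quiescent array of preparation 3 was the highest of all 6. Its log2 ratio of 0.27 had a 95% interval from -0.62 to 1.15 (limma adjusted p = 0.718), which includes a doubling.

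The ratios of the subunits were compared within each preparation on the brightest probe of each gene. The *Rrm2b* ratio is limited by its low signal, which was well above background on 3 of 6 arrays, so the differences from it are approximate. The ratio of *Rrm2* exceeded that of *Rrm2b* by 4.37, 2.11 and 6.14 in preparations 1, 2 and 3, a mean difference of 4.20 ± 2.02 (SD, n = 3, exact two-sided sign-flip p = 0.25, adjusted over 3 pairs 0.375). With 3 preparations 0.25 is the smallest p this test can give. The ratio of *Rrm2* was above that of *Rrm1* by 1.42 and 4.38 in preparations 1 and 3 and below it by 1.83 in preparation 2 (difference -1.83). The mean difference of 1.32 ± 3.11 (SD, n = 3, exact p = 0.75, adjusted 0.75) was smaller than its spread, and without preparation 3 its sign turned, to -0.21. This order depended on the probe. On the dimmer probes the ratios in preparations 1, 2 and 3 were 5.18, 4.49 and 5.43 for *Rrm2*. For *Rrm1* they were 2.28, 1.77 and 1.99, so *Rrm2* was above *Rrm1* in all 3 preparations. The difference on the dimmer probes was not tested.

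**Figure D2:**
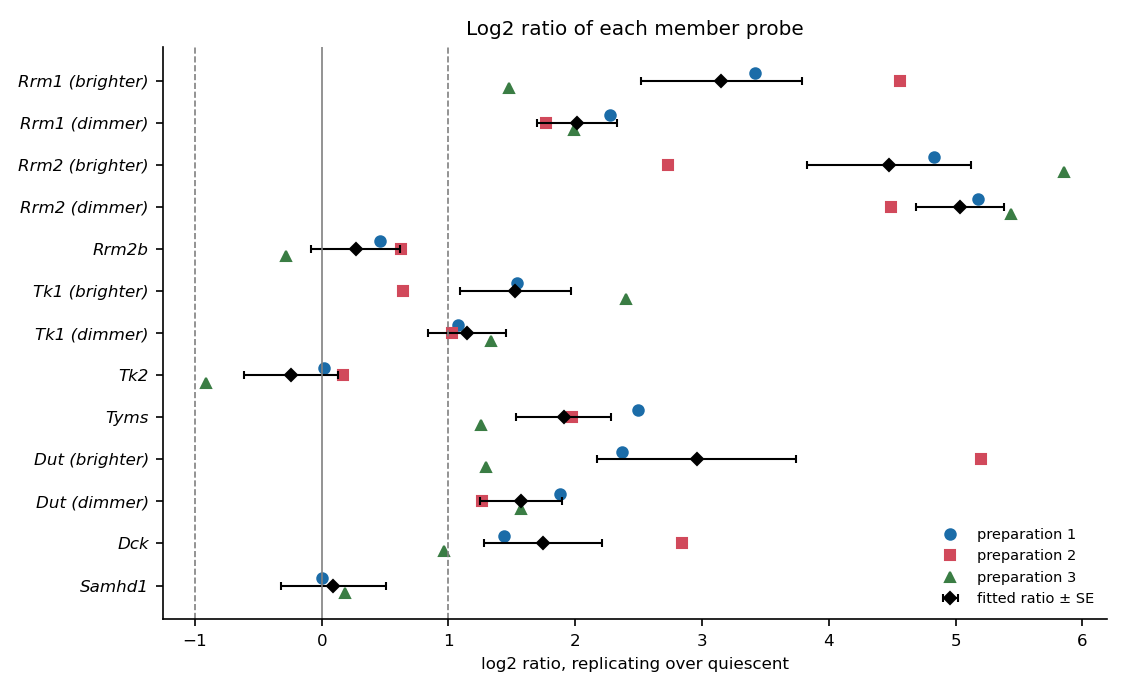
Log2 ratio of replicating over quiescent β-cells (x axis) for each member probe, with 1 coloured point per islet preparation. A black diamond gives the fitted ratio with its moderated standard error. Dashed lines mark a log2 ratio of 1 and -1. The 3 points of the 10 called probes all lie to the right of 0, and those of *Rrm2b* and *Tk2* lie on both sides.

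The thymidine kinases of the cytosol and of mitochondria differed in what they showed. *Tk1*, which phosphorylates thymidine for nuclear DNA, was called higher on both probes. Its brighter probe read 11.64, 11.66 and 12.01 on the replicating arrays and 10.11, 11.02 and 9.61 on the quiescent arrays. Its dimmer probe read 9.60, 9.25 and 9.35 against 8.52, 8.22 and 8.01. Groups did not overlap, but the quiescent array of preparation 2 came within 0.64 of its replicating partner on the brighter probe. The log2 ratios were 1.53 ± 0.44 (SE, n = 3, limma adjusted p = 0.475) and 1.14 ± 0.31 (SE, n = 3, limma adjusted p = 0.475). The call on the brighter probe was lost without preparation 1 or without preparation 3, where the log2 ratio was 1.52 and 1.09.

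*Tk2*, which keeps the mitochondrial pool of dTTP, read 10.84, 10.64 and 10.59 on the replicating arrays and 10.83, 10.48 and 11.50 on the quiescent arrays. The quiescent array of preparation 3 was the highest and the other quiescent arrays lay within 0.17 of their partners. The log2 ratio of -0.24 had a 95% interval from -1.18 to 0.69 (limma adjusted p = 0.761). The ratio of *Tk1* exceeded that of *Tk2* in all 3 preparations, by 1.52, 0.47 and 3.31, with a mean difference of 1.77 ± 1.44 (SD, n = 3, exact two-sided sign-flip p = 0.25, adjusted over 3 pairs 0.375).

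*Tyms*, which makes dTMP, and *Dut*, which makes its precursor dUMP, were higher in the replicating β-cells. *Tyms* read 8.94, 8.43 and 8.87 on the replicating arrays and 6.45, 6.46 and 7.61 on the quiescent arrays. Its log2 ratio was 1.91 ± 0.38 (SE, n = 3, limma adjusted p = 0.468), or 3.75-fold, and the smallest difference, 1.26, was in preparation 3. The brighter *Dut* probe read 12.79, 12.63 and 12.52 on the replicating arrays and 10.43, 7.42 and 11.22 on the quiescent arrays. The dimmer *Dut* probe read 8.41, 8.52 and 8.99 against 6.54, 7.26 and 7.41. The replicating values of the brighter probe were close together, while its quiescent values spanned 3.80 log2 units. The log2 ratios were 2.96 ± 0.79 (SE, n = 3, limma adjusted p = 0.475) and 1.57 ± 0.32 (SE, n = 3, limma adjusted p = 0.475). Without preparation 2 the brighter probe had 1.83, close to the 1.73 of the dimmer probe.

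*Dck*, which salvages deoxycytidine and the purine deoxynucleosides, read 9.04, 9.64 and 8.39 on the replicating arrays and 7.60, 6.80 and 7.43 on the quiescent arrays. It was the called probe whose replicating arrays differed most, with an SD of 0.626. Its log2 ratio was 1.75 ± 0.46 (SE, n = 3, limma adjusted p = 0.475), or 3.35-fold. *Samhd1*, which degrades deoxynucleoside triphosphates, read 6.91, 7.55 and 7.56 on the replicating arrays. It read 6.91 and 7.38 on the quiescent arrays of preparations 1 and 3, and its spot on the quiescent array of preparation 2 was marked as an outlier and left out of the fit. The log2 ratio of 0.093 had a 95% interval from -1.04 to 1.23 (limma adjusted p = 0.929). With the outlier spot kept the ratio was -0.36.

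*Rrm1*, *Rrm2*, *Tk1* and *Dut* had 2 probes each, and the probes of a gene gave the same call but unequal ratios. The brighter probe exceeded the dimmer by 1.14, 2.80 and -0.51 log2 units in the ratio of *Rrm1* in preparations 1, 2 and 3. For *Dut* the same difference was 0.49, 3.94 and -0.28. For *Rrm2* it was -0.35, -1.76 and 0.42, and for *Tk1* 0.46, -0.39 and 1.07. Preparation 2 held the largest disagreement in *Rrm1*, *Rrm2* and *Dut*. The quiescent arrays spanned 2.81, 3.14, 1.41 and 3.80 log2 units on the brighter probes of *Rrm1*, *Rrm2*, *Tk1* and *Dut* and 1.04, 0.93, 0.51 and 0.88 on the dimmer ones. Over the 10 called probes the median SD was 0.195 among replicating and 0.598 among quiescent arrays, and the quiescent SD was the larger in 9 of 10. Over all probes with a value on every array these medians were 0.216 and 0.647, and the quiescent SD was the larger in 85.8%.

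The quiescent array of preparation 2 stood apart in quality marks, with 1583 outlier spots against 252 to 299 on the other arrays. Probes well above background made up 98.4% of its probes and 80.7% to 96.4% on the others, and no spot was saturated. Without preparation 2, 10 member probes were again called higher, and the log2 ratios of the brightest probes were 5.34 for *Rrm2*, 2.45 for *Rrm1*, 1.97 for *Tk1*, 1.87 for *Tyms*, 1.83 for *Dut* and 1.20 for *Dck*. Both *Rrm2* probes then had an adjusted p of 0.0178 in limma. Without preparation 1, 6 member probes were called, both of *Rrm1*, both of *Rrm2*, *Tyms* and the brighter one of *Dut*. Of all 45598 probes, 1447 were called higher without preparation 2 and 518 without preparation 1, against 2023 with every preparation.

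The cells' labels were set against marker genes. Proliferation markers were called higher in 5 of 5 cases, with log2 ratios of 4.38 for *Cdk1*, 3.76 for *Top2a*, 3.38 for *Ccnb1*, 2.33 for *Mki67* and 1.68 for *Pcna*. Of the β-cell markers, 9 of 10 had a probe under their name, and all 9 were well above background on every array. *Mafa*, an activator of the insulin gene, was the only one called, with a log2 ratio of -1.01 on its brightest probe. Its 3 probes ran from -1.01 to -0.48, and 1 of them was called. Markers of other islet and pancreatic cells also moved with the groups. Of all probes, 4.44% were called higher and 4.18% lower. Called higher in the replicating β-cells were 2 of 6 alpha, 2 of 3 delta, 1 of 1 PP, 4 of 10 fibroblast and stellate, 3 of 10 macrophage and leukocyte, 1 of 6 acinar, 1 of 6 duct and 0 of 6 endothelial markers, and 0 of these were called lower. The summed linear level of the fibroblast and stellate list was 13654 to 39715 in the replicating and 4901 to 6126 in the quiescent arrays, and that of the alpha list 22649 to 90650 and 5781 to 17573. Their part in the ratios of the members was not tested. In sorted bulk cells, fewer cells of a type and less RNA per cell cannot be told apart.

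Around the members, 80 genes that feed, use or control deoxynucleotides were listed in 6 groups, and 79 had a probe. Each gene was read on its brightest probe. Of the 79 genes, 11 were called higher and 2 lower at the rule above, against 4.44% and 4.18% of all probes. At an adjusted p under 0.05 in limma there were 0, and the median log2 ratio was 0.46. Whether a list with 1 gene called departs from the share of all probes was not tested. In the thymidylate cycle and the kinases that raise dTMP to dTTP, 1 of 13 genes was called, *Dctd*. This dCMP deaminase, another source of dUMP, had a log2 ratio of 2.04 (2.22, 3.54 and 0.37 in preparations 1, 2 and 3). The list's median was 0.30 and its lowest ratio 0.10 for *Mthfd1*. *Dtymk*, the kinase that follows TYMS and TK1, had 1.08 (limma adjusted p = 0.477), with 1.10, 2.35 and -0.21.

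Among other nucleoside kinases, phosphoribosyltransferases and transporters 3 of 14 were called higher and 1 lower, with a median log2 ratio of 0.37. The equilibrative nucleoside transporters, which let thymidine and its analogues into the cell, were both called, *Slc29a1* with 1.33 and *Slc29a2* with 1.31. The uridine-cytidine kinase *Uck1* had 1.03 on the probe called and 0.91 on its other probe, which was not. *Aprt*, which salvages adenine, was called lower with -1.09. *Dguok*, the mitochondrial deoxyguanosine kinase, had 0.56 (limma adjusted p = 0.612). In nucleotide breakdown and pool sanitation 1 of 17 was called higher, the dCTP pyrophosphatase *Dctpp1* with 1.48, although its groups overlapped. In de novo ribonucleotide synthesis 1 of 18 genes was called, the guanylate kinase *Guk1* with 1.43, and the highest ratio, 2.37 for *Adss2*, was not called (limma adjusted p = 0.475).

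Ribonucleotide reductase takes its electrons from thioredoxin and glutaredoxin. Of 5 genes of this supply, 1 was called higher, the thioredoxin reductase *Txnrd1* with a log2 ratio of 1.91 (1.82, 3.24 and 0.68 by preparation), and the lowest ratio was 0.74 for *Txn1*. Of 12 genes that control the turnover or transcription of the members, 4 were called higher and 0 lower, with a median of 1.04. The cyclin *Ccna2* had 2.71 and was well above background on 2 of 3 quiescent arrays. The E2F family, which controls S-phase genes, gave unequal values. *E2f2* had 2.32, and *E2f7*, a repressor of that family, 4.17 on 1 probe and 0.014 on the other. *Rb1*, which restrains E2F, had 1.47. The lowest ratio was -0.24 for *Fzr1*, an activator of the ubiquitin ligase that marks RRM2 and TK1 for breakdown.

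**Figure D3:**
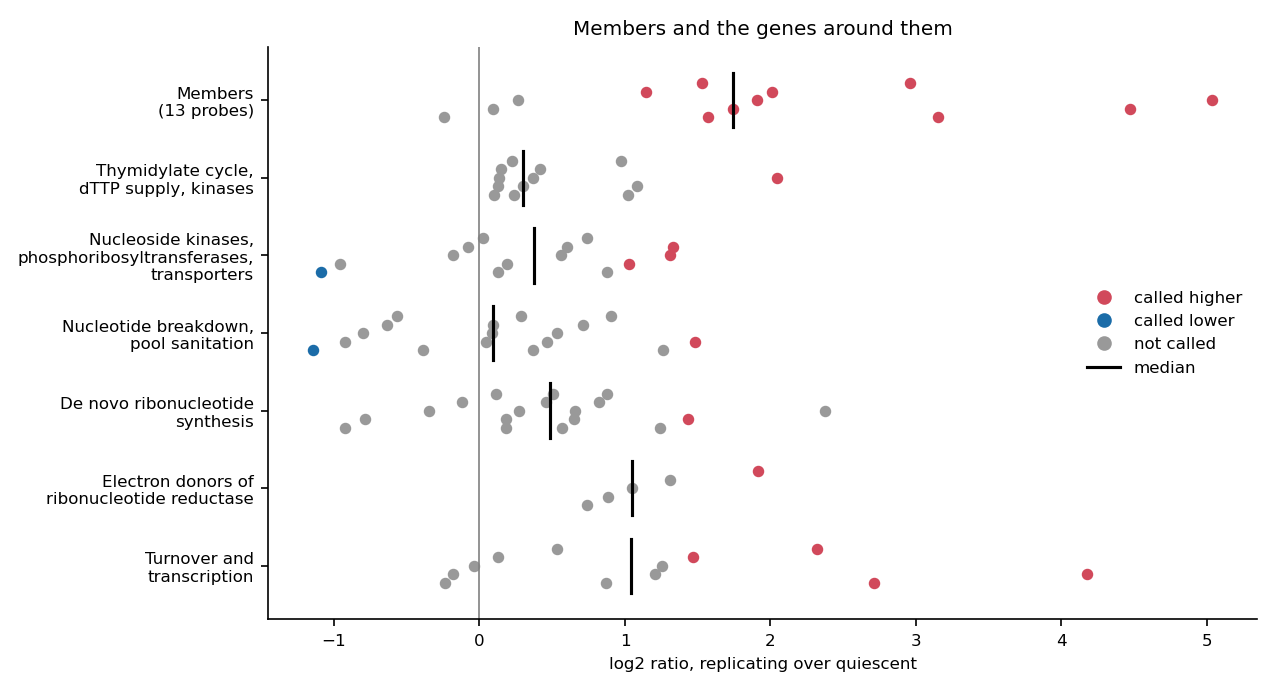
Log2 ratio of replicating over quiescent β-cells (x axis) for the 13 member probes and for the brightest probe of each of 79 genes in 6 lists, with a black line at each median. The members have a median of 1.75, above the medians of the lists, which run from 0.092 to 1.05.

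The genes whose values followed those of a member most closely over the 6 arrays were found by the distance between centred log2 profiles, among 22023 probes. They are a description over 6 arrays and carry no test. Because they were picked for likeness over these same arrays, a shared order of the quiescent values follows from the choice. The quiescent array of preparation 2, named below, is the one with 1583 outlier spots. Nearest to the brighter *Rrm2* probe were *Cenpt* (distance 1.44), *Kif18b* (1.46), *Ndc80* (1.74), *Ckap2* (1.78) and *Prc1* (1.85), whose products act at kinetochores or on the spindle. All 5 had their highest quiescent value in preparation 2, as *Rrm2* did. Nearest to the brighter *Rrm1* probe were *Sass6* (0.58), *Lmnb2* (0.71), *Mdfic* (0.78), *Cks1b* (0.79) and *Rfc3* (0.80). All 5 of these had their lowest quiescent value in preparation 2 and their highest in preparation 3, as the brighter *Rrm1* probe did. The dimmer *Rrm1* probe instead had its highest quiescent value, 7.96, in preparation 2. Nearest to the brighter *Tk1* probe were *Il33* (0.43), *Fam83d* (0.48), *Tubb6* (0.56), *Lsp1* (0.59) and *Gas2l3* (0.62). Like the brighter *Tk1* probe, these 5 had their highest quiescent value in preparation 2. The dimmer *Tk1* probe had its highest, 8.52, in preparation 1.

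Promoter windows of the assembly GRCr8 were given by RefSeq for 7 of the 9 members, from 250 bases before to 50 after the start of transcription, in 8 windows. *Rrm2* and *Rrm2b* were not among them. The windows were searched on both strands for the E2F motifs TTTCGCGC and TTTGGCGC, the CHR motif TTTGAA and the NF-Y motif CCAAT. These letters occur in 0.326%, 0.493%, 18.4% and 37.5% of all 33469 windows. An E2F motif was found in 1 member window, that of *Tyms*, from 37 to 30 bases before the start. The *Tyms* stretch is shown because it alone held that rarer motif. It covers the 100 bases before the start, at chr9:120776084-120776183 on the minus strand, and the motif is in capitals.
Tyms promoter: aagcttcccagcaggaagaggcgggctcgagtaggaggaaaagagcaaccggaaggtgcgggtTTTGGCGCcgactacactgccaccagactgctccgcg
CCAAT was found in the *Rrm1* window, and TTTGAA in those of *Dck* and *Tk2* and in 1 of the 2 *Dut* windows. The *Tk1* and *Samhd1* windows held none of these letters. The called and uncalled members thus both included windows with and without a match, and a match is no evidence of a bound factor.

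The ratios of the members were recomputed under 11 alternatives of processing and samples. Of these, 1 recomputed the deposited values from the intensities and gave the same ratios, so it is no separate check. Both probes of *Rrm1* and of *Rrm2*, *Tyms* and the brighter *Dut* probe were called higher under all 11. The dimmer *Tk1* probe was called under 7, the brighter *Tk1* probe and the dimmer *Dut* probe under 9 and *Dck* under 10. Of the listed genes, *E2f2*, *E2f7* and *Ccna2* were called higher under all 11, *Dctd* and *Txnrd1* under 10, *Slc29a1* under 9, *Guk1* under 8, *Slc29a2* and *Rb1* under 7, *Dctpp1* under 6 and *Uck1* under 4. *Aprt* was called lower under 5. Without preparation 2 the calls of *Slc29a2* (0.85), *Rb1* (0.96), *Uck1* (0.80) and *Aprt* (-0.81) were lost, and the ratios of *Dctd* and *Txnrd1* were 1.30 and 1.25. Without preparation 1 the calls of *Dctd* (1.95), *Txnrd1* (1.96), *Slc29a1* (0.98), *Guk1* (1.48), *Rb1* (1.37), *Uck1* (0.85), *Dctpp1* (1.11) and *Aprt* (-0.94) were lost, and without preparation 3 those of *Slc29a2* (1.36) and *Dctpp1* (1.11). Scaling to the 75th percentile moved the median of all probes, to -0.71 with the processed signal and to -0.39 with normexp. Relative to the median of all probes, the ratio of the 10-spot *Rrm2* probe ran from 4.90 to 6.22 and that of *Tyms* from 1.67 to 2.80.

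**Figure D4:**
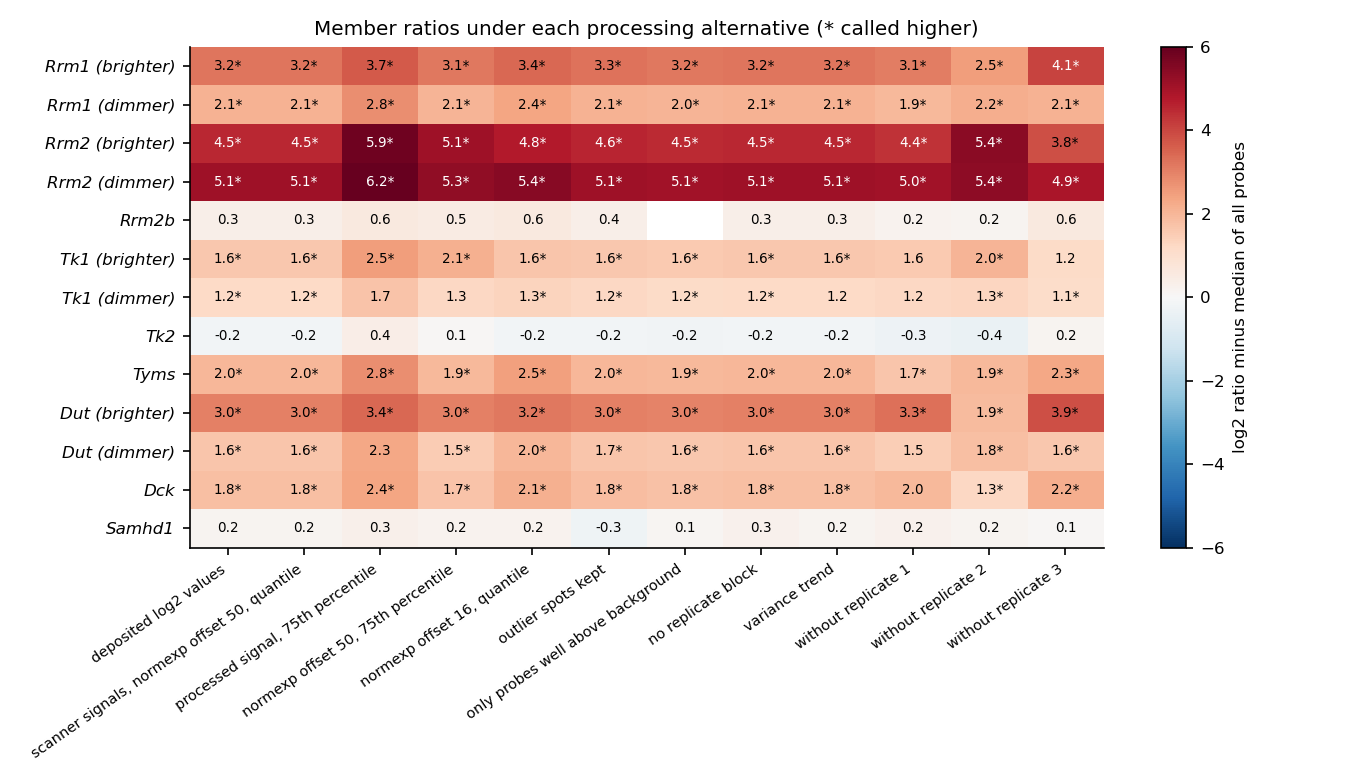
Log2 ratio of each member probe minus the median log2 ratio of all probes (colour and number), for the deposited log2 values and for 11 alternatives (columns); an asterisk marks a probe called higher. Both *Rrm1* and *Rrm2* probes keep an asterisk in every column, *Rrm2b*, *Tk2* and *Samhd1* have none, and the empty cell is *Rrm2b* under the filter on dim probes.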

How the data were processed

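The authors hybridized amplified, Cy3-labelled cDNA of sorted β-cells to 6 arrays and read them with Feature Extraction. They deposited the spot intensity values, not normalized between arrays, and log2 values per spot, corrected for background by normexp and then quantile normalized, which were used here. Values computed here from the intensities with a normexp offset of 50 differed from them by at most 0.000245. Control spots were left out, outlier-marked spots set to missing and spots of a probe averaged. All 45598 probes were fitted with limma 3.58.1 in R 4.3.3 (lmFit, eBayes) with preparation as the block, and p-values adjusted by Benjamini-Hochberg over all of them. The fit was tested on simulated data.

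Labels and methods pair the arrays by preparation. After centring on the groups, partners correlated at 0.0561, 0.242 and 0.258 over 44652 probes. Other genes were named by their array name or RefSeq accession and read on the brightest probe. Text names all members, the list genes called, the extremes and substrate neighbours of each list, and the 5 nearest profiles. Members and lists were chosen with earlier results of these data known. No protein sequences were used here, and some listed genes are not reported by name. The number of arrays limits precision.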

Additional observations from a re-analysis of the deposited data

How the results depend on the processing

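The number of member probes called higher was 10 without the replicate block, as with it, and 8 to 10 under the other settings of processing. Leaving out preparation 1, 2 or 3 gave 6, 10 and 9. Of the listed genes around the members, 11 were called higher and 2 lower without the block. With the processed signal scaled to the 75th percentile 5 were higher and 0 lower, with a normexp offset of 16 1 was lower, and with a variance trend 0 were lower. Leaving out preparation 1, 2 or 3 gave 4, 12 and 19 higher and 0, 0 and 4 lower. Over all 45598 probes the same 3 fits called 518, 1447 and 5112 higher and 63, 813 and 5633 lower. With the deposited values 2023 were called higher and 1905 lower, and with the processed signal 662 and 3193. Scaling to the 75th percentile changed the split over all probes: 51.5% of called probes were higher with the deposited values, 17.2% with the processed signal and 21.4% with normexp. Without the block 68.2%, without preparation 1 89.2% and without preparation 2 64.0% were higher. At an adjusted p under 0.05 limma called 719 probes with normexp and the 75th percentile, 99 without the block, 61 with the trend, 84 without preparation 2 and 0 under the rest.

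Signs turned for small ratios: *Rrm2b* had -0.12 with the processed signal, *Samhd1* -0.39 with the processed signal, -0.17 with normexp and the 75th percentile and -0.36 with outlier spots kept. Leaving out 1 preparation, *Tk2* had -0.45 to 0.092, and on the brightest probes *Rrm2* exceeded *Rrm1* by -0.21 to 2.90. The cause was not tested, apart from the outlier spot. *Dctpp1* lost its call without the block, where its unadjusted limma p was 0.0787 (adjusted 0.542), against 0.0431 with the block. *Rrm2b* was not well above background on 2 of 3 quiescent arrays, which limits its ratio.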
